A study of Mus musculus with 8 samples.

Results

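Aminoacyl tRNA synthetases are the enzymes that attach each amino acid to its tRNA before the ribosome uses it. Mammalian cells hold a cytosolic set for the translation of nuclear mRNA and a separate, nuclear-encoded set for the translation of the few mRNAs made in mitochondria. Glycyl and lysyl tRNA synthetase (Gars, Kars) serve both compartments from 1 gene, and several cytosolic enzymes form the multisynthetase complex on the scaffold proteins Aimp1, Aimp2 and Eef1e1. The genes described here were selected by name alone: a 1-letter amino acid code followed by "ars" with or without a 2, both subunits of the cytosolic phenylalanyl enzyme (Farsa, Farsb), and Eprs, the fused glutamyl and prolyl enzyme. This gave 37 of 29924 gene names on the array, of which 20 were counted as cytosolic and 17, whose names end in 2, as mitochondrial. A gene was tested if the 2 arrays of 1 or more cell types were scored well above background for its probe. This held for 36 of the 37 genes among 15764 genes tested in all. Nars2 (mitochondrial asparaginyl enzyme) was not tested, since its probe read 20 to 27 RU (relative units of normalized intensity, with a floor of 20) and none of the 8 arrays was scored well above background for it.

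The cells came from pLN (peripheral lymph nodes) of mixed-sex groups of B6.Cg-Foxp3<tm1Mal> mice aged 8 to 14 weeks, in which EGFP reports Foxp3, injected s.c. with KLH (keyhole limpet hemocyanin) in alum. All groups share this reporter allele and this immunization, and no unimmunized animals are among the arrays. CD4 T cells were sorted as naïve (GFP-PD1-GL7-), TFH (T follicular helper, GFP-PD1hiGL7+), Treg (regulatory T, GFP+PD1-GL7-) and TFR (T follicular regulatory, GFP+PD1hiGL7+/-) cells at d12 and d25 p.i., with 25 ng of RNA from pools of 8 to 15 mice. Each cell type had 1 array per day. p values therefore measure the spread between arrays of different days after the mean day difference is removed, and with sorted bulk RNA, a different mix of cells and a different amount of mRNA per cell cannot be told apart.

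On each array, 18261 to 19867 of 39429 probes were well above background, and no probe was saturated. The sorts showed their defining genes: Foxp3 read 49262 and 48593 RU in Treg, 37266 and 37513 RU in TFR and 66 to 358 RU on the other 4 arrays, and all 6 TFH markers were higher in both follicular cell types than in their progenitors. All d12 arrays were on 1 slide, at d25 naïve and TFH cells shared a slide and Treg and TFR cells another. TFH versus naïve and TFR versus Treg were thus compared within slides on each day, whereas day and slide cannot be told apart. Summed B cell markers stood apart in TFH cells, at 7581 RU at d12 and 50727 RU at d25.

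The promoters of 6 of the genes are shown because these genes represent the patterns below: Aars rose in follicular cells, Gars and Tars share a promoter element with it, Mars2 and Ears2 had the largest falls among the called genes and Fars2 the largest rise. The sequences are from RefSeq, build GRCm38.p6, and run 5′ to 3′ over the 250 bases before the annotated start. Capitals mark matches on either strand to the C/EBP-ATF composite element TGATGNAA, which Atf4 can bind, the E-box CACGTG, the ETS motif CCGGAAG or the CCAAT box CCAAT. No match overlapped another in these 6 sequences.
Aars, chr8:111033592-111033841, + strand: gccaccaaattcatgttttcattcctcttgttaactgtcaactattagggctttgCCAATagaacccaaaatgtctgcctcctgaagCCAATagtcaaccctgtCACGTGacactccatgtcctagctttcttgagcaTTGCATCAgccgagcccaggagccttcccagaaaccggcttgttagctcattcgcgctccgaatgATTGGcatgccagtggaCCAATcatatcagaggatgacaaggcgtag
Gars, chr6:55037751-55038000, + strand: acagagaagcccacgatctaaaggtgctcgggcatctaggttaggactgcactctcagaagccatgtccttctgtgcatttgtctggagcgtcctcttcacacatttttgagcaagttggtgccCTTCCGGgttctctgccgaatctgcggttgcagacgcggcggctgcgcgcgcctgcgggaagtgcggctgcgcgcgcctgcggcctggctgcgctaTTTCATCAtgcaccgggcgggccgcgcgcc
Tars, chr15:11399659-11399908, - strand: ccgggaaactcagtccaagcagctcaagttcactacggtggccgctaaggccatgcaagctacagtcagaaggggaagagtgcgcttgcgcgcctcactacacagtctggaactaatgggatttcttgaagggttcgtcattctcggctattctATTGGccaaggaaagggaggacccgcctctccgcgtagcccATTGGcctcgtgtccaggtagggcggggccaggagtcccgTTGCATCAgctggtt
Mars2, chr1:55236927-55237176, + strand: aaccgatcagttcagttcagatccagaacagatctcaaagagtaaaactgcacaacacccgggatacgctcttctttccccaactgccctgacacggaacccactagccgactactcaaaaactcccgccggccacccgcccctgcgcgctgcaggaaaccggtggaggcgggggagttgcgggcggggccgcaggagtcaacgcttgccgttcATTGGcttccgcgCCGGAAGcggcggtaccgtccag
Ears2, chr7:122067087-122067336, - strand: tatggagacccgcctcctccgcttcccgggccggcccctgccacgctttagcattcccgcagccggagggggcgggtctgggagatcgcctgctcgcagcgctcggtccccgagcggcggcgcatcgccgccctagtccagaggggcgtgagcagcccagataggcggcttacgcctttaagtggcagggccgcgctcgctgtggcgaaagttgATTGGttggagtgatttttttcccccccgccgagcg
Fars2, chr13:36117393-36117642, + strand: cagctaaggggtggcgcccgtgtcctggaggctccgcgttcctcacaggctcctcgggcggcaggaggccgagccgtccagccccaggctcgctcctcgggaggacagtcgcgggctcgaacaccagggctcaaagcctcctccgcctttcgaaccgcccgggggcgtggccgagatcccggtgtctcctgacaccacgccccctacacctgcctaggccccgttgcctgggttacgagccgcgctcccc

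The promoter table had a usable entry for 27 of the 37 genes, 13 cytosolic and 14 mitochondrial. The composite element was found in Aars (first base at -112 from the start), Gars (-30) and Tars (-15) and in no mitochondrial promoter, while 3.45% of all 32851 promoters of the same length held it. The E-box was found in Aars, Farsb and Iars and in no mitochondrial promoter, against 6.02% of all promoters. At shares this low a set of 14 promoters can easily hold none, so these absences do not separate the classes, and no test was run. ETS motifs were found in 7 genes, among them Mars2 at -23 and Sars at -10 (6.91% of all promoters), and CCAAT boxes in 12 genes, among them Mars2 and Ears2, both at -36 and inverted (33.8% of all promoters). The Fars2 sequence held none of these motifs. Of the 3 genes with the composite element, Aars rose and neither Gars nor Tars was called between follicular cells and their progenitors, with log2 differences of -0.16 and 0.02. Gars was called lower between TFH and naïve cells alone, by -0.31 ± 0.08 (adjusted p = 0.0357).

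As among all genes tested, more synthetase genes were lower than higher in follicular cells (TFH and TFR averaged, against naïve and Treg averaged). The differences were mostly small. The fall was largest for Mars2, the mitochondrial methionyl enzyme, and 3 genes rose: Aars, Vars and Fars2 (cytosolic alanyl, cytosolic valyl and mitochondrial phenylalanyl enzyme). At an adjusted p below 0.05, 14 of 36 genes were lower and 3 higher, where 33.2% of all genes tested were lower and 25.9% higher. In percent, 38.9 of the synthetase genes were thus lower and 8.33 higher. The share lower was near that of all genes, and the share higher was below it. In either direction, 47.2% of the synthetase genes were called, against 59.1% of all genes. The cytosolic class had 8 genes lower and 2 higher of 20, the mitochondrial class 6 lower and 1 higher of 16. The median log2 difference was -0.22 for the cytosolic and -0.17 for the mitochondrial genes, and -0.08 for all genes tested. The medians of the classes differed by -0.04, and by -0.10 and -0.03 at d12 and d25 taken alone (SD between days 0.05), so no gap between the classes was seen beyond the spread between days. On the probe chosen for each gene, only Mars2 exceeded an absolute log2 difference of 1. A further, dimmer probe of Iars2 was at -1.01. Of all genes, 18.7% passed this size together with the adjusted p. The median absolute difference was 0.26 for the synthetase genes and 0.40 for all genes. The Mars2 estimate ran from -1.37 to -0.93 over 19 alternative settings, so it did not exceed 1 in size under all of them. Without the TFR array of d25, 9 genes were lower and 2 higher.

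**Figure D1:**
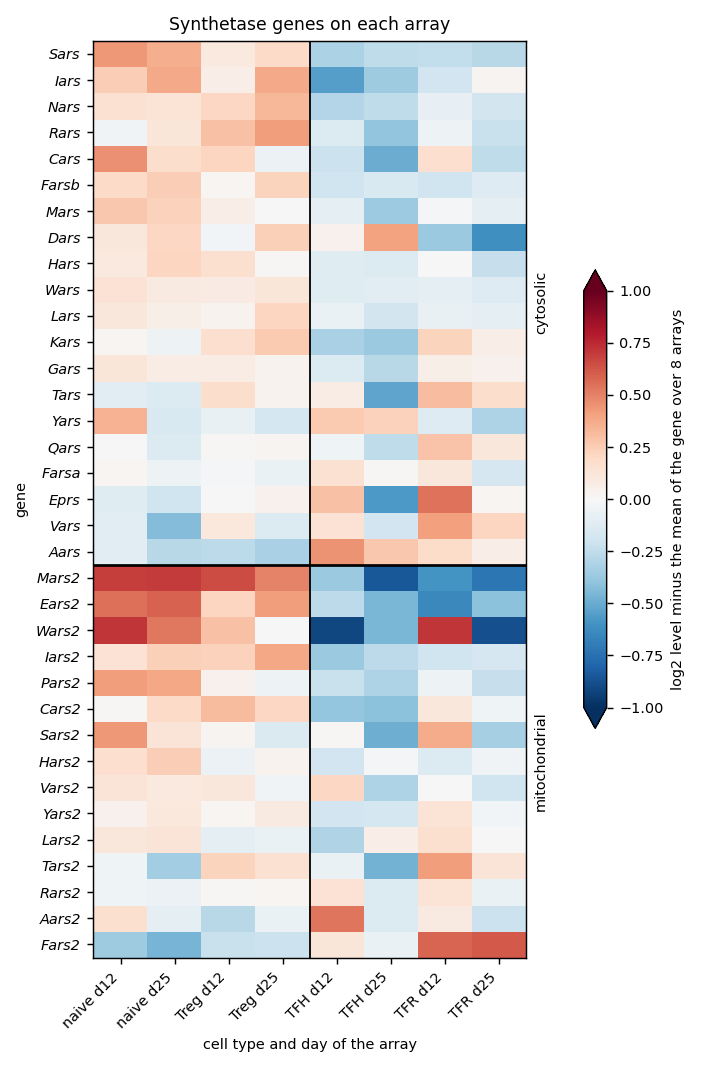
Log2 level of 35 of the 36 tested synthetase genes (rows, ordered within each class by the difference of follicular from progenitor cells) on the 8 arrays (columns), each minus the mean of the gene; the colour scale ends at -1 and 1. In 13 genes all 4 follicular arrays lie below all 4 naïve and Treg arrays, and in Aars and Fars2 all lie above.

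All 4 follicular arrays lay below all 4 progenitor arrays in 13 of 36 genes (36.1%, against 20.1% of all genes tested) and above them in 2 genes (5.56%, against 16.5%). TFH cells had the lowest mean of the 4 cell types in 23 of 36 genes, and naïve cells the highest in 17. This order was not counted over all genes tested, so it cannot be said whether these counts are particular to the synthetases.

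Among the cytosolic enzymes, seryl tRNA synthetase (Sars) read 29379 RU in naïve, 23334 in Treg, 17481 in TFH and 18350 in TFR cells at d12, and 27965, 24851, 18299 and 17996 RU at d25. All follicular arrays lay below all progenitor arrays, by -0.54 ± 0.06 on the log2 scale (SE, 2 arrays per cell type, limma adjusted p = 0.00193). Isoleucyl tRNA synthetase (Iars), a subunit of the multisynthetase complex, read 6689 RU in naïve, 5916 in Treg, 3839 in TFH and 4944 in TFR cells at d12, and 7318, 7348, 4408 and 5730 RU at d25. Again the 4 follicular arrays were the lowest, with TFH below TFR on both days, and the log2 difference was -0.54 ± 0.06 (adjusted p = 0.00197). The asparaginyl enzyme (Nars) fell from 4092 to 4674 RU on the progenitor arrays to 3031 to 3507 RU on the follicular arrays (-0.41 ± 0.07, adjusted p = 0.00546). The arginyl enzyme (Rars), also of the complex, fell from 284 to 388 RU to 222 to 281 RU (-0.40 ± 0.10, adjusted p = 0.0218), a call that was lost under 6 of 19 alternative settings. The cysteinyl (Cars), Farsb, methionyl (Mars) and tryptophanyl (Wars) genes also fell, by 0.40, 0.34, 0.28 and 0.22 on the log2 scale.

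The alanyl enzyme went the other way. Aars read 6320 RU in naïve, 5697 in Treg, 9359 in TFH and 7787 in TFR cells at d12, and 5648, 5461, 8239 and 7166 RU at d25. The 4 follicular arrays were the highest, and TFH lay above TFR on both days. The log2 difference was 0.49 ± 0.06 (adjusted p = 0.00221), or 1.40-fold. Vars, the only other cytosolic gene called higher, rose by 0.29 ± 0.06 (adjusted p = 0.0131), from 2988 to 4344 RU on the progenitor arrays to 3539 to 5376 RU on the follicular arrays, and these ranges overlap between days. The probes of Aars, Sars and Iars lie at chr8:113579376-113579434, chr3:108229539-108229598 and chr13:49829328-49829387 of build NCBI37, the build of the array files. Exon and UTR annotation of that build was not used here.

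Among the mitochondrial enzymes, Mars2 (probe at chr1:55295642-55295701, NCBI37) read 751 RU in naïve, 729 in Treg, 359 in TFH and 307 in TFR cells at d12, and 754, 656, 258 and 281 RU at d25. The follicular arrays did not overlap the progenitor arrays, and the log2 difference was -1.27 ± 0.10 (adjusted p = 0.000588), or 0.415 times the progenitor level. The glutamyl enzyme (Ears2, probe at chr7:129182565-129182624) read 2387 RU in naïve, 1894 in Treg, 1365 in TFH and 1043 in TFR cells at d12, and 2458, 2176, 1191 and 1230 RU at d25. It was lower on every follicular array, by -0.88 ± 0.09 (adjusted p = 0.00158). The isoleucyl enzyme (Iars2) fell from 5029 to 5956 RU to 3534 to 4048 RU (-0.50 ± 0.06, adjusted p = 0.00205). The prolyl enzyme (Pars2) fell from 3342 to 4620 RU to 2796 to 3340 RU (-0.40 ± 0.06, adjusted p = 0.00426), where the lowest Treg array and the highest TFR array were nearly level. Cars2 and Hars2 (cysteinyl and histidyl) fell by 0.37 and 0.19.

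Fars2 (probe at chr13:36629402-36629461, NCBI37) was the only mitochondrial gene called higher. It read 4787 RU in naïve, 5251 in Treg, 6679 in TFH and 9165 in TFR cells at d12, and 4449, 5283, 5862 and 9345 RU at d25. The 4 follicular arrays were the highest, with both TFR arrays above both TFH arrays. The log2 difference was 0.63 ± 0.07 (adjusted p = 0.00162), or 1.54-fold. Wars2, the mitochondrial tryptophanyl enzyme, had a large but scattered difference (-0.77 ± 0.34, adjusted p = 0.110), with TFR arrays at 274 and 91 RU.

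Both follicular cell types were then compared with their own progenitors. Between TFH and naïve cells, 15 of 36 genes were lower and 2 higher, where 25.6% of all genes were lower and 20.9% higher. Between TFR and Treg cells, 8 were lower and 3 higher, where 20.9% of all genes were lower and 18.7% higher. The 8 genes called in both were Sars, Iars, Nars, Mars2, Ears2 and Iars2, all lower, and Aars and Fars2, both higher. The share of all genes called in both was not counted. It thus cannot be said whether this overlap is particular to the synthetases. With the slide as a block, Iars and Nars, of these 8 genes, were no longer called between TFR and Treg cells (adjusted p = 0.0741 and 0.0562). Aars and Iars also lost that call with no day term, and Iars with no spot excluded. Of these genes, Mars2 alone kept both calls under all 19 alternative settings. Mars2 fell by 1.31 ± 0.14 in TFH and by 1.23 ± 0.14 in TFR cells (adjusted p = 0.00204 and 0.00375), and Ears2 fell by 0.93 ± 0.13 and 0.84 ± 0.13 (adjusted p = 0.00553 and 0.00952). Aars rose by 0.56 ± 0.08 and 0.42 ± 0.08 (adjusted p = 0.00599 and 0.0169), and Fars2 by 0.44 ± 0.10 and 0.81 ± 0.10 (adjusted p = 0.0185 and 0.00434). Within slides, the median over the 36 genes was -0.25 at d12 and -0.37 at d25 for TFH minus naïve, and -0.05 and -0.17 for TFR minus Treg.

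Between TFH and naïve cells alone 9 genes were called, all lower (Cars, Cars2, Farsb, Gars, Hars2, Kars, Mars, Pars2 and Sars2). Cars and Pars2 had the largest differences among them. The share of all genes called in only 1 of these contrasts was not counted either. For Cars2, being called between TFH and naïve cells alone held for the chosen probe only. A further probe, nearly as bright, was also called lower between TFR and Treg cells (-0.45 ± 0.09, adjusted p = 0.0193). Cars read 4727 and 3877 RU in naïve, 2969 and 2442 RU in TFH, 3989 and 3306 RU in Treg and 3863 and 2878 RU in TFR cells (d12 and d25), a log2 difference of -0.67 ± 0.09 in TFH (adjusted p = 0.00396) and -0.12 ± 0.09 in TFR cells (adjusted p = 0.309). Pars2 differed by -0.67 ± 0.08 (adjusted p = 0.00364) and -0.14 ± 0.08 (adjusted p = 0.25). Its further, dimmer probe was called in neither contrast, at -1.22 ± 0.44 and -0.77 ± 0.44 (adjusted p = 0.0772 and 0.221). Dars, Rars and Vars passed the test between TFR and Treg cells but not between TFH and naïve cells, and all 3 calls were lost with the slide as a block (adjusted p = 0.0664, 0.0856 and 0.0583). The difference of the 2 contrasts itself was called for no synthetase gene, where 8.49% of all genes were called. At an unadjusted p below 0.05 there were 7 (19.4%, against 25.3% of all genes). The lowest adjusted p values were those of Pars2 (0.53 ± 0.12, adjusted p = 0.0654) and Cars (0.55 ± 0.12, adjusted p = 0.0657). By these estimates, which were not called, both were less reduced from Treg to TFR than from naïve to TFH cells. On the further Pars2 probe the difference of the contrasts was 0.45 ± 0.62 (adjusted p = 0.715). For Pars2, the Treg level itself was lower than the naïve level (-0.40), and TFR and TFH cells differed by only 0.12, which was not called. An intensity trend with a robust prior called the difference of the contrasts for Pars2 and Cars. The estimate was positive for 29 of 36 genes, with a median of 0.20 and a median of 0.00 for all genes. Without the TFH array of d25 this median was 0.07 (13 negative), without the Treg array of d12 0.09 (14 negative) and without the naïve array of d25 0.12 (10 negative).

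Leaving out single arrays lowered both counts of calls. Of 17 calls between TFH and naïve cells, 8 were made without the naïve array of d12, 7 without that of d25, and 11 without either TFH array. Of 11 between TFR and Treg cells, 6 were made without either naïve array, 3 without the Treg array of d12 or either TFR array and 2 without the Treg array of d25. With the slide as a block, or with no day term, this count was 6. On the chosen probes, with an absolute log2 difference of 1 required as well, Mars2 alone was called in both contrasts. Of all genes, 20.7% and 16.0% were. Over 19 alternative settings its estimates ran from -1.50 to -0.96 (TFH versus naïve) and from -1.27 to -0.89 (TFR versus Treg), so some settings put it below that size.

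**Figure D2:**
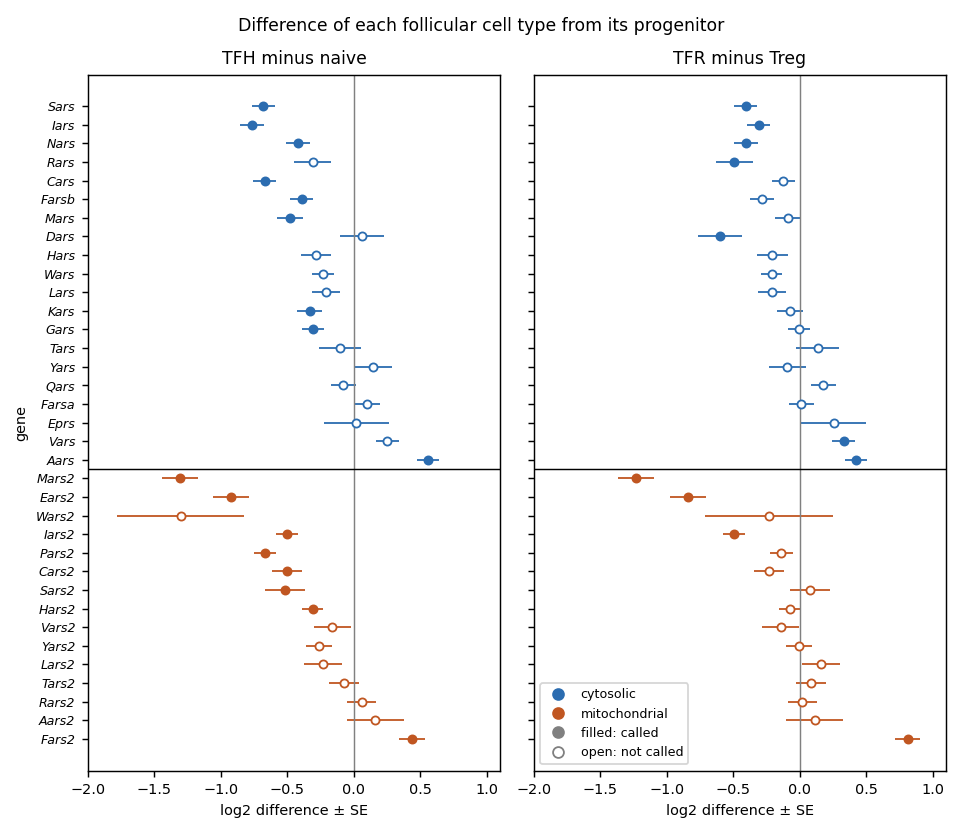
Log2 difference ± SE of TFH from naïve cells (left) and of TFR from Treg cells (right) for 35 of the 36 genes, cytosolic in blue above the line and mitochondrial in orange below it; filled points passed the adjusted p. Mars2, Ears2, Iars2, Sars, Iars and Nars are lower and Aars and Fars2 higher in both panels, while Cars, Pars2 and 7 others are filled on the left only.

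For 14 amino acids the cytosolic and the mitochondrial enzyme could be set side by side, in 15 pairs because Fars2 faces both cytosolic subunits. Follicular and progenitor cells differed in the same direction for both enzymes in 10 of 15 pairs, and by less than 0.25 from each other in 6. Since 13 of 20 cytosolic and 11 of 16 mitochondrial estimates were negative, genes paired at random would also often share a sign. Random pairs were not counted. The cysteine pair (Cars -0.40, Cars2 -0.37) and the isoleucine pair (Iars -0.54, Iars2 -0.50) moved alike in sign and size. The methionine pair did not, with Mars at -0.28 ± 0.07 (adjusted p = 0.0196) and Mars2 at -1.27 ± 0.10. For phenylalanine, Farsa was at 0.06, Farsb at -0.34 and Fars2 at 0.63. The difference between the enzymes of a pair was not tested.

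**Figure D3:**
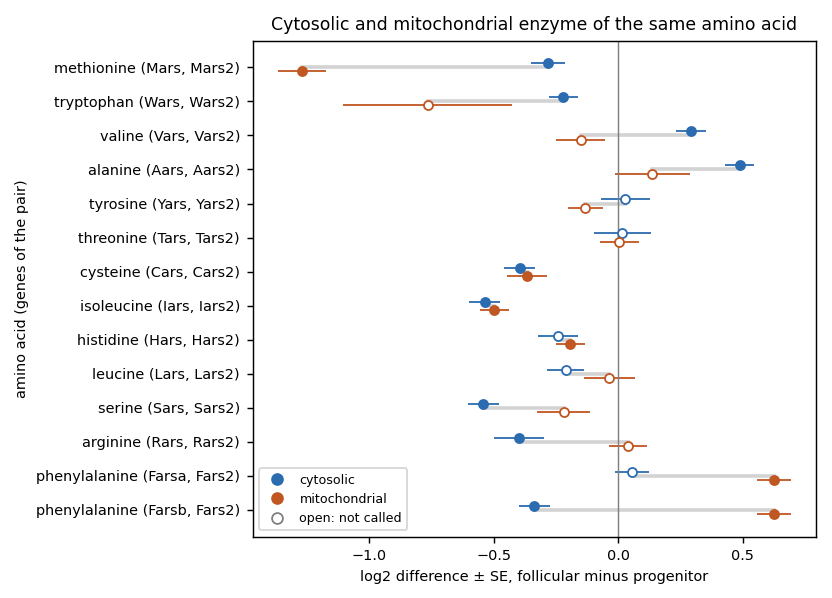
Log2 difference ± SE between follicular and progenitor cells for the cytosolic (blue) and mitochondrial (orange) enzyme of the same amino acid in 14 of the 15 pairs; open points did not pass the adjusted p. The mitochondrial enzyme lies lower in 6 of these pairs, farthest for methionine, and farthest above the cytosolic gene for phenylalanine (Farsb).

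Of the 8 enzymes of the multisynthetase complex (Lars, Iars, Mars, Qars, Rars, Kars, Dars, Eprs), 3 were lower (37.5%, against 33.2% of all genes) and none higher in follicular cells, with a median of -0.24. Iars, Mars and Rars were those called, and Eprs and Qars were at 0.14 and 0.05. Of the 12 other cytosolic genes, 5 were lower and 2 higher, with a median of -0.19. The scaffold proteins Aimp2 and Eef1e1 fell by 0.61 ± 0.06 and 0.84 ± 0.07 (adjusted p = 0.00117 and 0.000660), and Aimp1 was at -0.18 (adjusted p = 0.132).

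TFR and TFH cells differed in 5 genes, 4 higher in TFR cells and 1 lower, where 11.6% of all genes were higher and 10.5% lower. Dars, the aspartyl enzyme, read 422 and 357 RU in TFR and 561 and 720 RU in TFH cells (-0.71 ± 0.17, adjusted p = 0.0411). Fars2 (0.56 ± 0.10, adjusted p = 0.0180), Tars2 (mitochondrial threonyl, 0.54 ± 0.11, adjusted p = 0.0301), Kars (0.49 ± 0.10, adjusted p = 0.0264) and Iars (0.37 ± 0.09, adjusted p = 0.0427) were higher in TFR cells. Kars read 31423 and 28137 RU in TFR and 21487 and 20729 RU in TFH cells, with no overlap. TFH cells were sorted as GL7+ and TFR cells as GL7+/-. This contrast thus differs in the GL7 gate as well as in Foxp3, and the part of each was not tested. At d25 it also crosses slides, and with the slide as a block no gene was called. The count was 0 without either TFR array or the TFH array of d25, 1 (Fars2) without either naïve array, and 3 without the TFH array of d12 or either Treg array.

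Treg and naïve cells differed in no synthetase gene, where 9.88% of all genes were called, and 6 (16.7%, against 27.4% of all genes) had an unadjusted p below 0.05. Pars2 had the lowest adjusted p, with 3569 and 3342 RU in Treg and 4620 and 4524 RU in naïve cells (-0.40 ± 0.08, adjusted p = 0.0512), and was called under 5 of the alternatives. The estimates ran from -0.47 (Wars2) to 0.38 (Tars2).

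No synthetase gene was called between d25 and d12 over the 4 cell types, where 0.0698% of all genes were called, and 5 (13.9%, against 28.8% of all genes) had an unadjusted p below 0.05. The estimate was negative for 27 of 36 genes, with a median of -0.08 (all genes 0.00). Taken by cell type, with single arrays and no test, the level was lower at d25 in 24 genes in naïve, 25 in TFH, 16 in Treg and 30 in TFR cells, where 46.5% to 49.5% of all genes were lower. The following genes were picked for their size after their values were seen. In TFH cells, Eprs went from 975 to 533 RU. In TFR cells, Sars2 (mitochondrial seryl) went from 1341 to 822 RU and Wars2 from 274 to 91 RU. The opposite was seen for Iars, Iars2, Hars2 and Farsb, which were higher at d25 in all 4 cell types (Iars at 6689 and 7318 RU in naïve cells). Scaling to the 75th percentile without quantile normalization gave 23, 29, 21 and 33 genes lower in naïve, TFH, Treg and TFR cells, with the median of all genes at -0.02 to -0.06. The rise of B cell markers between the TFH arrays runs along with this day difference, and their part in it was not tested.

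**Figure D4:**
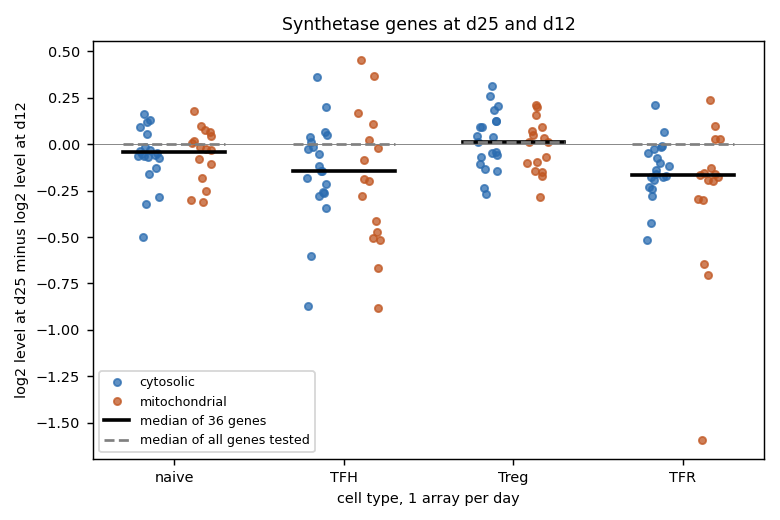
Log2 level at d25 minus log2 level at d12 for the 36 genes in each cell type, with 1 array per day, cytosolic in blue and mitochondrial in orange; black bars are medians of the 36 genes and dashed bars medians of all genes tested. The medians of the 36 genes are -0.04, -0.14, 0.01 and -0.16 in naïve, TFH, Treg and TFR cells.

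Of the genes, 8 had more than 1 probe that could be tested, 9 further probes in all, which were fitted together with the chosen ones. The further probe had the same sign as the chosen one in 6 of 9 cases in the comparison of follicular and progenitor cells, and the call differed in 2. Between TFH and naïve cells the sign was the same in 7 and the call differed in 3, and between TFR and Treg cells in 6 and 4. These 4 were Cars2, Tars2, Wars and Wars2, each called lower between TFR and Treg cells on the further probe only. One of the 2 genes whose call differed between follicular and progenitor cells was Tars2. Its brighter probe was at 0.00 ± 0.08 and its dimmer probe, designed to another transcript, at -0.73 ± 0.11 (adjusted p = 0.00438). The other was Wars2, whose dimmer probe was at -0.69 ± 0.19 (adjusted p = 0.0298). Both probes of Iars2, Pars2, Cars2 and Wars were called lower. The dimmer Iars2 probe had the larger difference, at -1.01 ± 0.15 (adjusted p = 0.00396) against -0.50 on the chosen probe. Between TFR and Treg cells, the dimmer probes of Iars2 and Wars2 were at -1.43 ± 0.21 and -1.27 ± 0.27 (adjusted p = 0.00762 and 0.0211).

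Other genes of tRNA charging and translation were taken from lists. The counts of this and the next 2 paragraphs stand against all genes tested, of which 33.2% were lower and 25.9% higher (median -0.08). Of 36 genes of tRNA maturation and modification, 21 were lower and 4 higher in follicular cells, with a median of -0.29. The largest changes were those of Dus2, a tRNA dihydrouridine synthase, which rose by 1.97 ± 0.09 (adjusted p = 0.000190), and of Rpp40, a subunit of RNase P, and Trmt61a, a tRNA adenosine methyltransferase, which fell by 1.25 ± 0.11 and 1.16 ± 0.06 (adjusted p = 0.000778 and 0.000240). Dus2 read 18189 and 18004 RU in TFH, 6499 and 7244 RU in TFR and 2352 to 3486 RU on the 4 progenitor arrays. Of 6 cytosolic elongation factors 4 were lower and none higher (median -0.35), and of 15 mitochondrial translation factors 5 were lower and 2 higher (median -0.14). The share of mitochondrial translation factors called lower was thus near that of all genes.

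Uncharged tRNA is sensed by the kinase Gcn2 (Eif2ak4), which leads to translation of the transcription factor Atf4, and several synthetase genes are known Atf4 targets. Of 10 kinases and factors of this response, 3 were higher, 2 lower and 5 not called in follicular cells, with a median of -0.12 and a range from -0.46 (Ppp1r15a) to 0.70 (Eif2ak2). Eif2ak4 rose by 0.41 ± 0.08 (adjusted p = 0.0106) and the Atf4 mRNA fell by 0.31 ± 0.09 (adjusted p = 0.0379). Of 19 tested Atf4 target genes from a list without synthetases, 8 were higher, 4 lower and 7 not called, with a median of 0.15. Asns, the asparagine synthetase, read 1769 and 878 RU in TFH, 3473 and 2551 RU in TFR, 172 and 148 RU in naïve and 692 and 451 RU in Treg cells (2.69 ± 0.14, adjusted p = 0.000223). Stc2, a secreted glycoprotein, was not well above background on the progenitor arrays and was at least 43.9-fold higher in TFH than in naïve cells (adjusted p = 8.32e-05) and at least 7.43-fold higher in TFR than in Treg cells (adjusted p = 0.000429). Chac1, which degrades glutathione, was at least 2.40-fold and 2.24-fold higher (adjusted p = 0.0366 and 0.0475). These bounds set the dim arrays at their lowest signal well above background. Targets that fell included Trib3, a pseudokinase, by 1.43 ± 0.15 (adjusted p = 0.00138), and Ddit3, a transcription factor, by 0.64 ± 0.07 (adjusted p = 0.00142).

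**Figure D5:**
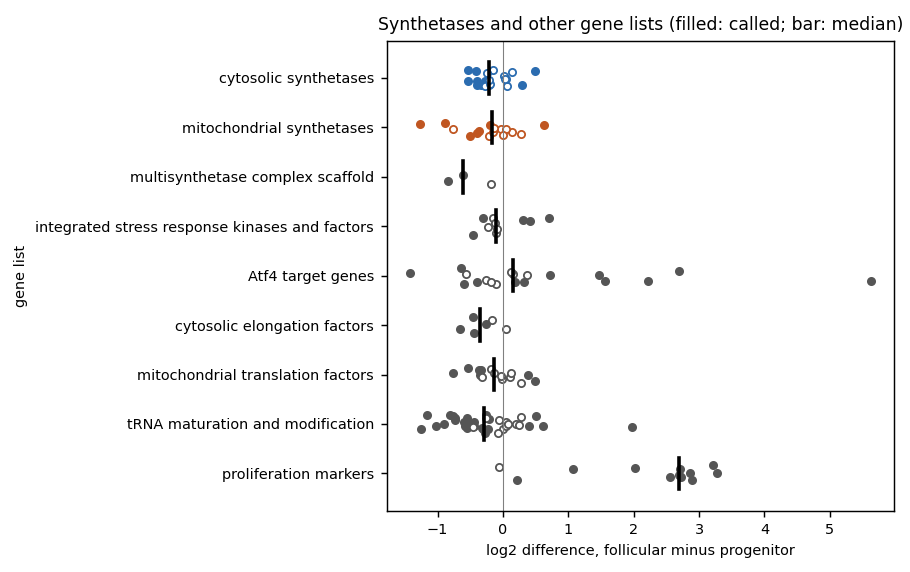
Log2 difference between follicular and progenitor cells for each tested gene of the 2 synthetase classes and of 7 other lists; filled points passed the adjusted p and bars are medians. The synthetases lie between -1.27 and 0.63, whereas Atf4 targets reach 5.63, a fitted value for Stc2 whose progenitor arrays were not well above background, and proliferation markers have a median of 2.70.

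Of 12 tested proliferation markers, 11 were higher in follicular cells and none lower, with summed levels of 30395 to 31971 RU in naïve, 39165 to 43749 in Treg, 52318 to 60579 in TFH and 106719 to 126962 RU in TFR cells, while for Aurkb no array was scored well above background. Of 10 tested B cell markers none was called in either direction, and for Pax5 no array was scored well above background. Of 5 tested myeloid markers 1 was higher (Cd68) and 2 lower (Itgam, Csf1r), with summed levels of 17717 to 27383 RU on the follicular and 18508 to 30531 RU on the progenitor arrays and no array well above background for Cd14 and Adgre1. Of 3 tested markers of antibody-secreting cells 1 was higher (Xbp1), with summed levels of 42114 to 48036 RU in TFH cells and 20245 to 31873 RU on the other arrays, and Tnfrsf17 was above background on none. Both CD8 T cell markers were lower in follicular cells (2110 to 3174 RU summed, against 4208 to 5118 RU). Their part in the synthetase differences was not tested.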

How the data were processed

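Cells were sorted by the authors and 1 one-color Agilent array was hybridized per cell type and day. The authors deposited the spot intensities and flags (other) of Agilent Feature Extraction 10.7.3.1, with probe positions in NCBI37, and a table of normalized intensities. Their steps were repeated from the background-corrected spot signals: exclusion of flagged spots, of spots outside 1.42 times the interquartile range of the 4 spots of a probe and of spots with a pixel coefficient of variation above 0.5 (86.4% to 89.2% kept), geometric mean, quantile normalization, scaling to 1500 at the 75th percentile, with values under 20 raised to 20. The log2 values correlated with the deposited table at r = 0.9994. The probe with the highest mean represented a gene. Differences were estimated with limma 3.58.1 (R 4.3.3, lmFit and eBayes, cell type and day as terms, 3 residual degrees of freedom, prior 1.89) and adjusted over all 15764 genes (Benjamini-Hochberg). The methods' ANOVA needs replicates per cell type and day and was not run. The script was tested on simulated data. The genes, lists and tests were chosen with earlier results of these data known. The ETS and CCAAT motifs were added after the promoters had been read. Genes were given in full if among the 5 largest called differences of a class, or of TFR versus TFH. Results for 2 genes are not reported here by name. The number of arrays limits the precision.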

Additional observations from a re-analysis of the deposited data

How the results depend on the processing

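A total of 19 alternatives was fitted. The 10 genes given in full for follicular versus progenitor cells kept their direction under all of them, and 9 also kept their call, Rars being the exception. Of the same genes, 7 of 10 stayed on their side of the threshold throughout for TFH versus naïve and 3 of 10 for TFR versus Treg, and 0 of 5 calls held throughout for TFR versus TFH. The 3 for TFR versus Treg were Mars2 and Fars2, both called, and Pars2, never called there. Rars, never called for TFH versus naïve, is among the 7. The gap between the class medians changed by less than the spread between days, from -0.07 to 0.00 when 1 array was left out. Leaving out 1 array gave 7 to 15 calls between TFH and naïve cells, 2 to 10 between TFR and Treg cells, 11 to 16 between follicular and progenitor cells, and 0 to 3 between TFR and TFH cells. On the chosen probes, requiring also an absolute log2 difference of 1 left 1, 1, 1 and 0. Between TFR and Treg cells the count was 6 with the slide as a block and 6 with no day term. Between TFR and TFH cells it was 9 with normexp background correction, 1 with no filter on dim probes, 0 with the slide as a block, 3 with no day term and 10 with an intensity trend and robust prior. The same trend gave 2 calls for the difference of the contrasts, 1 for Treg versus naïve and 2 for d25 versus d12. Treg versus naïve had 1 call with the authors' table, 1 with 75th percentile scaling alone, 1 with no spot excluded and 1 where all 8 arrays had to be well above background, and the latter gave 1 for d25 versus d12. The cause was not tested. Fits without 1 array assume that the lone array of its cell type varies like the others. Arrays were paired by day in every fit but the one with no day term.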
